A study of Bos taurus with 12 samples.

Results

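The 9 genes described here are interferon receptor chains, transcription factors of interferon signalling and interferon response genes: IFNAR1, IFNAR2, STAT2, IRF9, IRF2, ISG15, MX1, MX2 and IFI6. They were taken by symbol from the 32637 genes of the count table, where all 9 were found. Expression was measured by RNA-seq in bovine expanded blastocysts produced in vitro, in 6 female and 5 male libraries. The oocytes came from slaughterhouse ovaries, the embryos were grown in commercial media without further treatment, and semen of a pair of bulls was rotated by week, so no group carried a genetic change. Each library was a pool of 2 cut expanded blastocysts of one sex, collected on Day 7 or Day 8 and sexed by PCR on the remaining piece, and a library is therefore a pool rather than one embryo. A mixed-sex sample of 4-cell stage embryos was not analysed here.

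Interferons of type I bind a receptor made of the chains IFNAR1 and IFNAR2. Kinases bound to the chains then activate STAT2, which joins IRF9 in a complex that enters the nucleus and switches on a large set of response genes. In ruminants, the trophectoderm secretes interferon tau, a type I interferon that acts on the uterus as the signal of pregnancy, and ISG15, MX1 and MX2 are known for their response to it in the mother.

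The libraries held between 6664112 and 21392764 counted reads. Levels are given as CPM, the share of a library's counts on a common scale set with TMM factors, and 3 counts, the limit that a count of 0 allows, were worth between 0.145 and 0.412 CPM. Exon lengths were not at hand, so levels of different genes are not ranked against each other. An order by mean CPM served only to choose genes and to arrange a figure. The 10 trophectoderm markers were over 3 counts in every library, as were 6 of 7 inner cell mass markers. Of 6 leukocyte markers, CD68 was over 3 counts in every library and PTPRC and CD79A in none. Of 7 cumulus cell markers, FSHR was over 3 counts in every library and AMH and FOXL2 in none. The other markers of these lists were over 3 counts in some libraries. Male replicate 5 stood apart: it had counts for 14937 genes against 16985 to 18550 in the 10 other libraries, and a summed trophectoderm marker level of 36074 CPM against 7864 to 23110 CPM. KRT8 (20103 CPM) and LGALS3 (9349 CPM) made up most of that sum. CDX2, KRT8, KRT18 and DAB2 were highest in this library. LGALS3, GATA2, GATA3, TFAP2A, TFAP2C and PTGS2 lay within the range of the other libraries. Fewer cells of a type and less RNA per cell cannot be told apart in pooled embryos.

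No difference between the sexes passed the test in any of these genes. None of the 9 genes was called sex-biased, at a false discovery rate under 0.1 and a fold change over 1.5, against 245 of the 12802 genes tested (1.91%, of which 0.414% of tested genes were higher in males and 1.5% in females). Only 5 of the 9 passed the filter on low counts and entered the edgeR quasi-likelihood test, namely IFNAR1, STAT2, IRF9, MX1 and IFI6, and 0 of these 5 had an unadjusted p under 0.05. DESeq2 called 0 as well. The genes differed in how many libraries they were found in. The receptor chain IFNAR1 and the factors STAT2 and IRF9 were counted in all 11 libraries, IFNAR2 was nearly uncounted, and the response genes ISG15 and IFI6 were high in 3 libraries and near 0 in most others. MX1 was over 3 counts in 9 libraries, MX2 in 5 and IRF2 in 4.

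**Figure D1:**
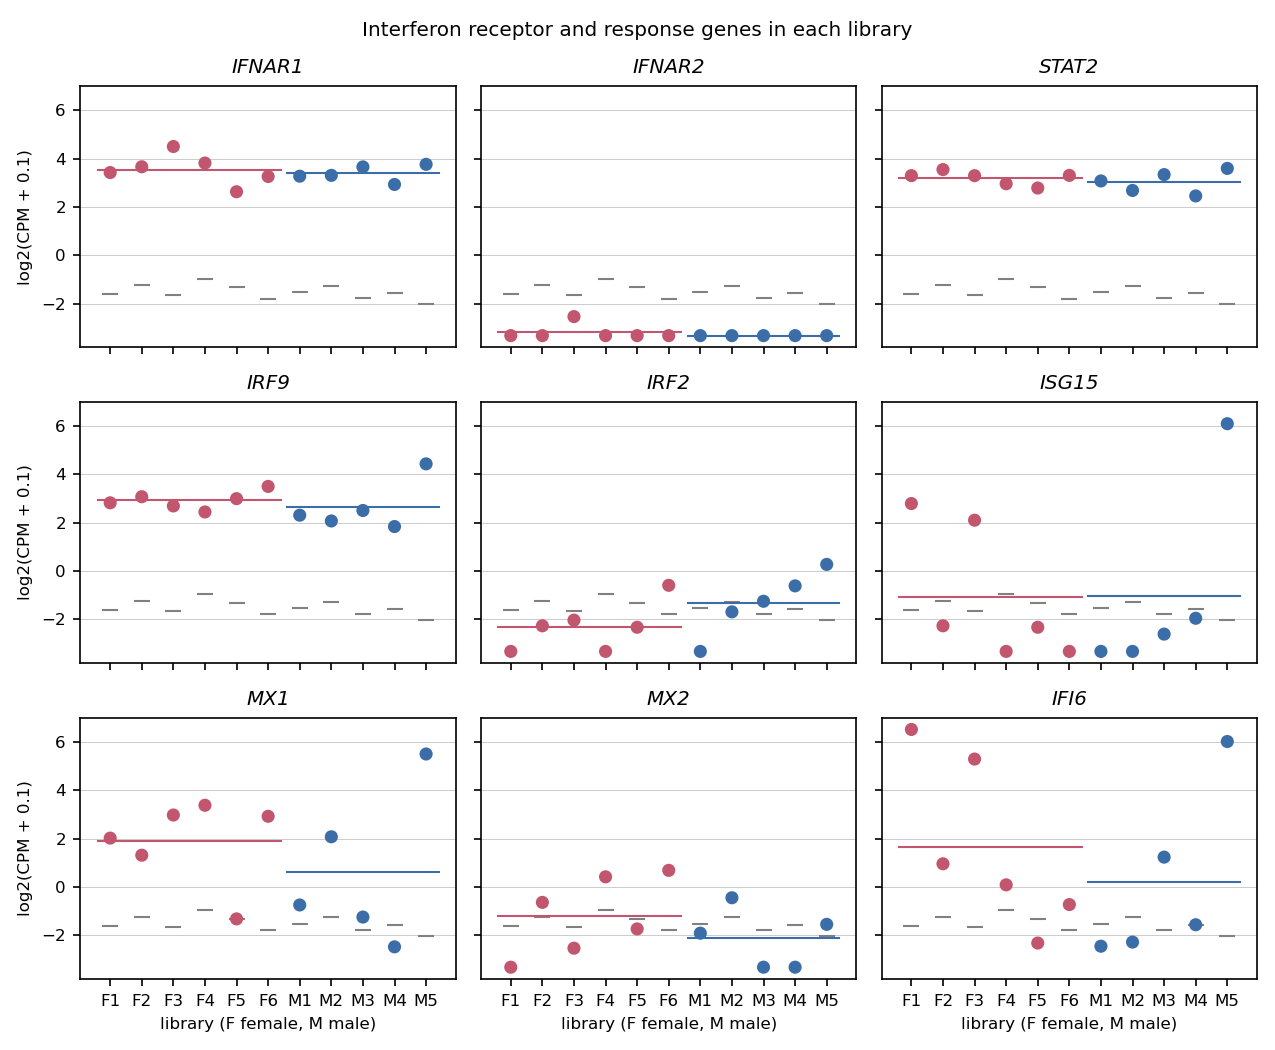
Level of each of the 9 genes in the 6 female (F, red) and 5 male (M, blue) libraries, as log2 of CPM plus 0.1. Grey ticks mark the level of 3 counts and horizontal lines the mean of each sex on this scale; IFNAR1 and STAT2 are at 5.39 CPM or more in all libraries, while ISG15 and IFI6 stand out in F1, F3 and M5.

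The receptor chains differed from each other. IFNAR1 (chr1:2187824-2218344, ARS-UCD2.0), the chain that couples to the kinase TYK2, ranged from 6.09 to 22.6 CPM in the female libraries with a median of 11.6 CPM. In the males it was 9.58, 9.81, 12.5, 7.53 and 13.5 CPM in replicates 1 to 5. The sexes overlapped, with every male library inside the female range. The means were 12.6 ± 5.60 CPM in female pools (SD, n = 6) and 10.6 ± 2.41 CPM in male pools (SD, n = 5), and the log2 fold change, male minus female, was -0.07 (SE 0.27, edgeR adjusted p = 0.947). Its direction turned when female replicate 3 (0.02) or male replicate 3 (0.09) was left out.

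IFNAR2 (chr1:2315591-2350080), the chain that binds the ligand most tightly and couples to JAK1, had 1 count among the 141129547 counts of all 11 libraries. That count fell in female replicate 3, at 0.0725 CPM, and the 10 other libraries had none. IL10RB, its neighbour on chromosome 1 and a receptor chain of interferon lambda and interleukin 10, was counted 6483 times, at 44.9 ± 11.5 CPM in female pools (SD, n = 6) and 45.6 ± 9.29 CPM in male pools (SD, n = 5). IFNAR2 was thus not detectable at this depth as it is annotated, while its neighbour was counted in every library. With 1 count, the sexes cannot be compared in it.

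The other receptor chains showed no call either. Of the 6 chains listed, which include both IFNAR chains, 4 were tested, with a median log2 fold change of -0.03 against 0.01 over all tested genes, and 0 were called. IFNGR1, the ligand-binding chain of the interferon gamma receptor, was at 38.6 ± 7.86 CPM in female pools (SD, n = 6) and 39.9 ± 22.4 CPM in male pools (SD, n = 5). Its partner IFNGR2 was at 1.06 ± 0.578 CPM in females and 0.824 ± 0.939 CPM in males.

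Among the transcription factors, STAT2 (chr5:56994869-57010632), the subunit that gives the complex its activating domain, varied little between libraries. In the females it ranged from 6.79 to 11.6 CPM with a median of 9.72 CPM. In the male replicates 1 to 5 it was 8.34, 6.33, 10.02, 5.39 and 11.99 CPM. The sexes overlapped over nearly the whole range. The means were 9.22 ± 1.72 CPM (SD, n = 6) and 8.42 ± 2.69 CPM (SD, n = 5), with a log2 fold change of -0.12 (SE 0.28, edgeR adjusted p = 0.898). Its annotation overlaps that of IL23A, which had 28 counts in all.

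IRF9 (chr10:20986941-20992503), the subunit that recognizes the DNA element of response genes, ranged from 5.35 to 11.2 CPM in the females with a median of 7.44 CPM. In the males it was 4.87, 4.11, 5.59 and 3.49 CPM in replicates 1 to 4 and 21.6 CPM in replicate 5. Replicate 5 was thus above every other library, and 3 of the 4 other males were below every female. The log2 fold change was -0.15 (SE 0.41, edgeR adjusted p = 0.917). It was -0.73 without male replicate 5 and 0.03 without male replicate 4. IRF9 shares a short stretch of annotation with RNF31, which had 823 counts, and the counts of that stretch are uncertain for both.

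IRF2 (chr27:14872063-14955725), a factor that competes with the activator IRF1 at the same DNA elements, had 50 counts in all and did not pass the filter on counts. It averaged 0.153 ± 0.211 CPM in female pools (SD, n = 6) and 0.440 ± 0.426 CPM in male pools (SD, n = 5). It passed 3 counts in female replicate 6 (9 counts) and in male replicates 3, 4 and 5 (5, 7 and 23 counts). The difference of 0.287 CPM was smaller than the SD in males (two-sided exact permutation test, p = 0.178).

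No call was made among the wider set of signalling genes. Of 10 genes of the JAK-STAT list, which includes STAT2 and IRF9, 8 were tested, 7 were lower and 1 was higher in males, and 0 were called (median log2 fold change -0.15). JAK1, the kinase bound to IFNAR2, was at 40.4 ± 3.33 CPM in female pools (SD, n = 6) and 29.3 ± 7.89 CPM in male pools (SD, n = 5). Its log2 fold change was -0.47 (SE 0.19, edgeR adjusted p = 0.324), and it did not pass the test. STAT3, which serves other cytokines too, was at 43.3 ± 15.2 and 43.7 ± 4.55 CPM, and JAK2, a kinase of the gamma receptor, had a log2 fold change of -0.48 (SE 0.41, edgeR adjusted p = 0.674).

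Of 12 interferon regulatory factors and their binding proteins, IRF2 and IRF9 included, 10 were tested and 0 called (median log2 fold change -0.22). IRF3, which switches on interferon genes after virus sensing, was at 36.0 ± 4.66 CPM in female pools (SD, n = 6) and 32.8 ± 10.5 CPM in male pools (SD, n = 5). IRF7, which amplifies interferon production, was at 17.7 ± 4.96 and 17.3 ± 15.2 CPM.

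The response genes behaved in another way. ISG15 (chr16:51464069-51465096), a ubiquitin-like protein that is attached to other proteins after interferon, had 1569 counts in all, and 1416 of them were in male replicate 5. The females had 90, 1, 58, 0, 1 and 0 counts in replicates 1 to 6, and the males 0, 0, 1, 2 and 1416 counts in replicates 1 to 5. In CPM, male replicate 5 was at 68.5 (exact 95% binomial interval 65.0 to 72.1), female replicate 1 at 6.84 (5.50 to 8.41) and female replicate 3 at 4.21 (3.19 to 5.44). These intervals cover counting error only. The 8 other libraries were under 3 counts each, in both sexes, so ISG15 was high in single libraries of both sexes and near 0 in the rest of both.

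The mean level of ISG15 was 1.88 ± 2.95 CPM in female pools (SD, n = 6) and 13.7 ± 30.6 CPM in male pools (SD, n = 5) (two-sided exact permutation test, p = 0.5). With most counts in male replicate 5, this test could hardly give a small p whatever the other libraries held. It also left out the library number. Without male replicate 5 the difference, male minus female, turned from 11.9 to -1.82 CPM. With all libraries, DESeq2 gave a log2 fold change of -4.48 with the library number (adjusted p = 0.488). It was -3.84 with both numbers of the library name (adjusted p = 0.570) and 2.86 with sex alone. By edgeR without the filter it was -1.08 (adjusted p = 0.713). The direction thus depended on the model. ISG15 did not pass the filter, which asks for counts in as many libraries as the smaller sex has.

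IFI6 (chr2:125662191-125665797), a small membrane protein induced by type I interferon, was high in the same 3 libraries. The females had 1201, 17, 538, 7, 1 and 8 counts in replicates 1 to 6, which gives 91.3, 1.84, 39.0, 0.961, 0.0999 and 0.503 CPM. The males had 1, 1, 35, 3 and 1335 counts, which gives 0.0826, 0.105, 2.25, 0.238 and 64.6 CPM. Female replicate 1, male replicate 5 and female replicate 3 were far above all others, and the sexes overlapped.

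The mean of IFI6 was 22.3 ± 37.1 CPM in female pools (SD, n = 6) and 13.4 ± 28.6 CPM in male pools (SD, n = 5). The log2 fold change was -2.38 (SE 3.45, edgeR adjusted p = 0.824). With all counted genes kept and no filter, edgeR gave IFI6 a log2 fold change of -2.40 and an adjusted p of 0.00348, and called it, with 3.11% of the 23857 genes then tested. The log2 fold change of IFI6 was -4.85 without male replicate 5 (edgeR adjusted p = 0.166), where the male mean was 0.669 CPM. It was 0.46 without female replicate 1, 0.63 without female replicate 3, 0.51 without male replicate 1 and 0.49 without male replicate 2.

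MX1 (chr1:141668304-141706499), a dynamin-like GTPase that blocks viruses, was counted in all 11 libraries. In the females it was at 3.95, 2.38, 7.76, 10.3, 0.300 and 7.48 CPM in replicates 1 to 6. In the males it was at 0.496, 4.11, 0.321, 0.0793 and 45.1 CPM in replicates 1 to 5. Male replicate 5 was again the highest library. The sexes overlapped, with male replicate 2 above female replicates 1, 2 and 5. Female replicate 4, the second highest for MX1, had 0 counts of ISG15 and 7 of IFI6, so MX1 did not follow the other response genes in every library.

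The means of MX1 were 5.36 ± 3.77 CPM in female pools (SD, n = 6) and 10.03 ± 19.7 CPM in male pools (SD, n = 5), with a log2 fold change of 0.19 (SE 1.51, edgeR adjusted p = 0.977). Without male replicate 5 the log2 fold change was -2.49 (edgeR adjusted p = 0.319). It was also negative without female replicate 5 (-0.69), female replicate 6 (-0.34) or male replicate 2 (-0.31).

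MX2 (chr1:141621179-141656965), the neighbour and relative of MX1, had 54 counts in all. The females had 0, 5, 1, 9, 2 and 24 counts and the males 2, 6, 0, 0 and 5. Its highest libraries were female replicates 6 and 4, and male replicate 5 was not raised in it. The means were 0.593 ± 0.637 CPM in female pools (SD, n = 6) and 0.208 ± 0.260 CPM in male pools (SD, n = 5) (two-sided exact permutation test, p = 0.275).

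**Figure D2:**
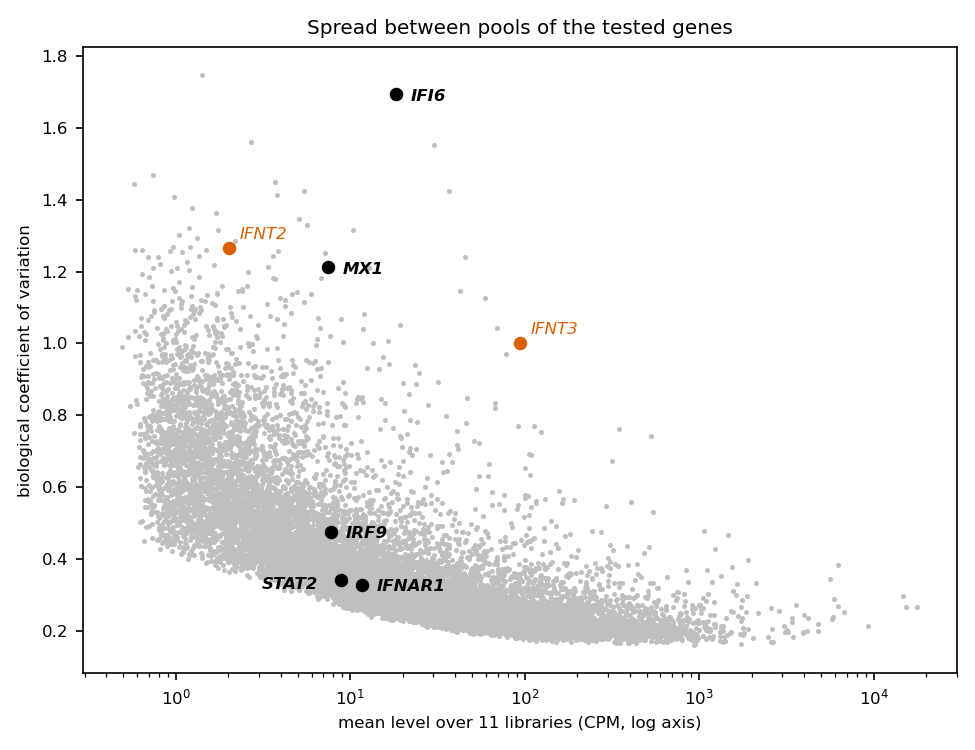
Biological coefficient of variation against mean level over 11 libraries (log axis) for the 12802 tested genes in grey, with the 5 tested genes in black and the ligands IFNT2 and IFNT3 in orange. IFI6, at 1.69, and MX1, at 1.21, lie far above the bulk, while STAT2, IFNAR1 and IRF9 lie within it.

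The spread between pools was widest in IFI6 and MX1 among the 5 tested genes. The biological coefficient of variation is the relative spread of a gene between libraries beyond counting error. It was taken after sex and library number were fitted, and edgeR draws each gene's value toward those of other genes. It was 0.329 for IFNAR1 and 0.341 for STAT2, close to the median of 0.348 over all tested genes. It was 0.477 for IRF9, and the median over the 30 tested interferon-stimulated genes was 0.426. For MX1 it was 1.21, and 40 of the 12802 genes had a higher value. For IFI6 it was 1.69, with 1 gene higher. The standard errors of the log2 fold changes of MX1 and IFI6, 1.51 and 3.45, were accordingly wide.

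The libraries carry a number in their name, from 1 to 3, with 2 females and 1 or 2 males each, and the sexes were compared within each. IFI6 was higher in females under number 1 (46.6 against 0.0940 CPM) and number 2 (20.0 against 2.25 CPM), but lower under number 3 (0.301 against 32.4 CPM). ISG15 had the same order, with 3.47 against 0 CPM, 2.10 against 0.0642 CPM and 0.0499 against 34.3 CPM. MX1 was at 3.17 against 2.30 CPM, 9.03 against 0.321 CPM and 3.89 against 22.6 CPM. Thus the direction of each of these response genes under number 3, which holds male replicate 5, was opposite to that under the others.

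Between the library numbers, with sex in the fit, 0 of the 5 tested genes were called by the edgeR F test, as against 0.00781% of the tested genes, and 0 had an unadjusted p under 0.05. DESeq2 called 0 as well. Without the filter, IFI6, ISG15 and MX1 were called, where 2.76% of 23857 genes were. With 2 females and at most 2 males under a number, the number cannot be told apart from single pools that were high.

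The other interferon-stimulated genes were read in the same way. Of 57 genes listed, which include ISG15, MX1, MX2 and IFI6, 54 were in the table, 46 had over 3 counts in at least 1 library and 30 were tested. Of these 30, 18 were higher in males and 12 lower, and the median log2 fold change was 0.06 against 0.01 over all tested genes. A single gene of the 30 was called, which is near the share over all tested genes (1.91%). It was LGALS3BP, a secreted glycoprotein that binds galectins, lower in males. It was at 20.7 ± 4.97 CPM in female pools (SD, n = 6) and 8.36 ± 4.62 CPM in male pools (SD, n = 5), a log2 fold change of -1.38 (SE 0.33, edgeR adjusted p = 0.0781).

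LGALS3BP ranged from 15.0 to 28.6 CPM in the females, with 16.5 CPM in male replicate 1 and 5.31 to 7.07 CPM in the 4 other males. The sexes therefore overlapped through male replicate 1 alone. Its adjusted p stayed under 0.1 in 2 of the 11 edgeR fits that left out a library, those without female replicate 1 (0.0801) and male replicate 1 (0.0170). In the 9 others it lay between 0.107 and 0.243, and the log2 fold change lay between -1.71 and -1.18 in all 11. With all libraries, DESeq2 called LGALS3BP with the library number (adjusted p = 0.00253), with both numbers (0.000527) and with sex alone (0.00253). EdgeR with the title number as block did not (adjusted p = 0.142), nor did glmTreat.

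**Figure D3:**
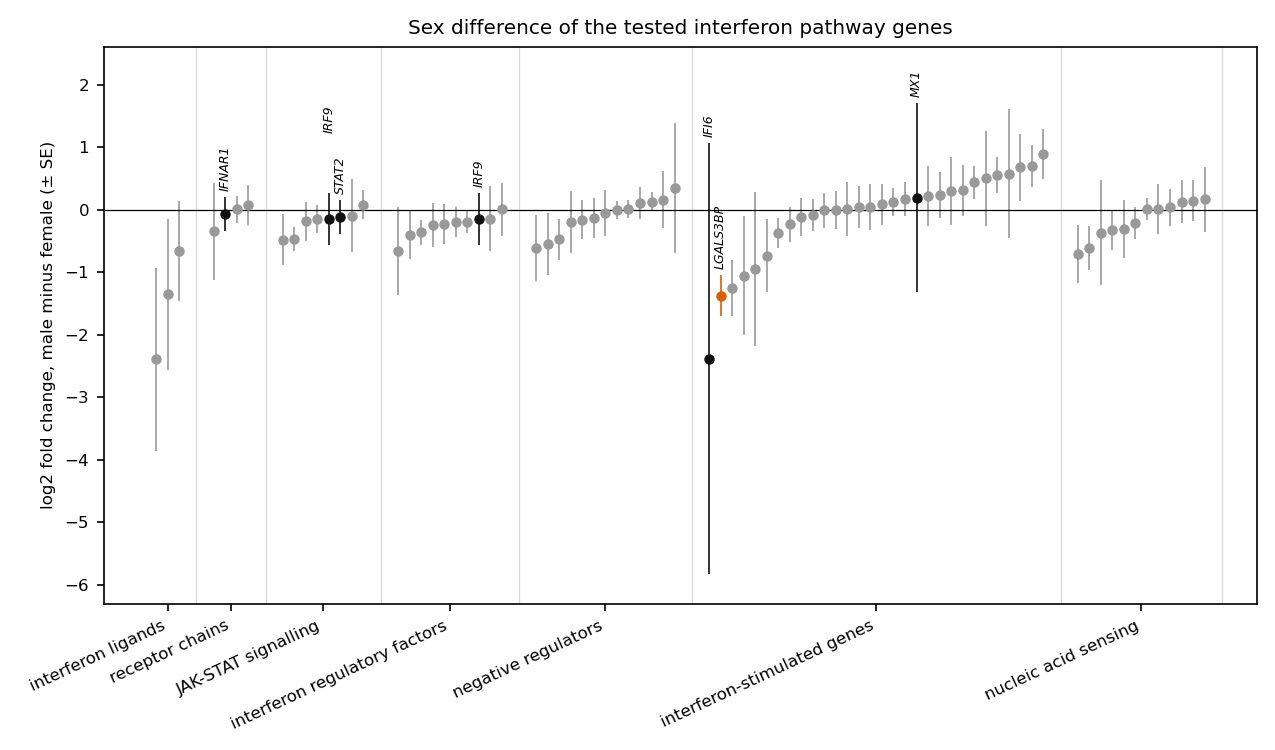
Log2 fold change, male minus female, with its standard error for the tested genes of each list, ordered by size within a list; the 5 tested genes described are in black, the one called gene, LGALS3BP, in orange and the rest in grey. IRF9 stands in both lists that hold it, and the widest bar is that of IFI6 at -2.38 ± 3.45.

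The 3 listed interferon-stimulated genes with the highest mean CPM, gene length not allowed for, were counted in every library, and none was called. B2M, the light chain of class I histocompatibility molecules, was at 364 ± 75.8 CPM in female pools (SD, n = 6) and 407 ± 140 CPM in male pools (SD, n = 5). GBP4, a guanylate-binding protein, was at 55.1 ± 26.9 and 62.7 ± 22.4 CPM, with a range from 13.2 CPM in female replicate 6 to 99.4 CPM in male replicate 3. LOC777594, which the annotation gives as IFITM3, a membrane protein that hinders virus entry, was at 62.9 ± 23.3 and 62.2 ± 24.7 CPM, though another locus carries that name as a synonym and the assignment is uncertain. GBP5 was at 2.21 ± 1.17 and 0.876 ± 0.616 CPM, with a log2 fold change of -1.25 (SE 0.45, edgeR adjusted p = 0.251).

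Several response genes shared the libraries of ISG15 and IFI6, and these were picked out after their values were seen. OAS1Y, an oligoadenylate synthetase, had 41, 37 and 193 counts in female replicates 1 and 3 and male replicate 5, and 1 count in all other libraries together. IFI44L had 24, 18 and 142 counts in the same order and 1 count elsewhere. IFI27, a relative of IFI6, was at 12.2, 4.57 and 7.06 CPM in these libraries and at 0.771 CPM or less in the others. IFITM1 was at 8.06, 7.11 and 25.3 CPM there, and its next highest library was at 4.26 CPM.

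Counted over the list, 6 of the 36 interferon-stimulated genes with at least 50 counts, ISG15, MX1, MX2 and IFI6 left out, had these 3 libraries as their 3 highest (16.7%), against 100 of all 14530 genes with as many counts (0.688%). They were OAS1Y, IFI44, IFI44L, IFI27, IFITM1 and XAF1. The 3 libraries were chosen from ISG15 and IFI6, and 4 of these genes had been seen before the count was made, so it is a description only. The 3 libraries also had over 3 counts for 42, 43 and 41 of the 54 listed genes, against 28 to 35 in the 8 others. The 54 hold ISG15 and IFI6, from which the libraries were chosen, and the genes named above, so this too is a description only. The share over all genes was not taken at this limit. Depth was 13674990, 12728738 and 21392764 counts in the 3 libraries, against 6664112 to 16241810 in the 8 others.

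The summed markers of each list were set beside the 3 libraries, and a part of cell make-up in their values was not tested. A sum rests mainly on the most abundant genes of its list, and opposite moves within it can cancel. In male replicate 5, POU5F1 had its highest level (736 CPM) and SPIC its lowest (55.7 CPM), both inner cell mass markers. Summed trophectoderm markers were 23110, 7864 and 36074 CPM in female replicates 1 and 3 and male replicate 5, which are the second highest, the lowest and the highest of the 11. Leukocyte markers summed to 1.29, 4.86 and 0.580 CPM there, against 2.40 to 6.72 CPM in the 8 others. Cumulus markers summed to 32.6, 7.18 and 16.6 CPM, against 5.37 to 29.4 CPM. Inner cell mass markers summed to 598, 979 and 894 CPM, against 561 to 1077 CPM. The sums of the hypoblast markers were 272, 620 and 208 CPM, against 228 to 469 CPM.

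Male replicate 5 was the highest library for 11 of the 30 tested interferon-stimulated genes (36.7%), and for 24.9% of all tested genes. Many genes of other kinds thus had their highest level in it too. The same share was 16.7% in female replicate 3, against 9.32% of all tested genes, and 6.67% in female replicate 1, against 7.93%.

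**Figure D4:**
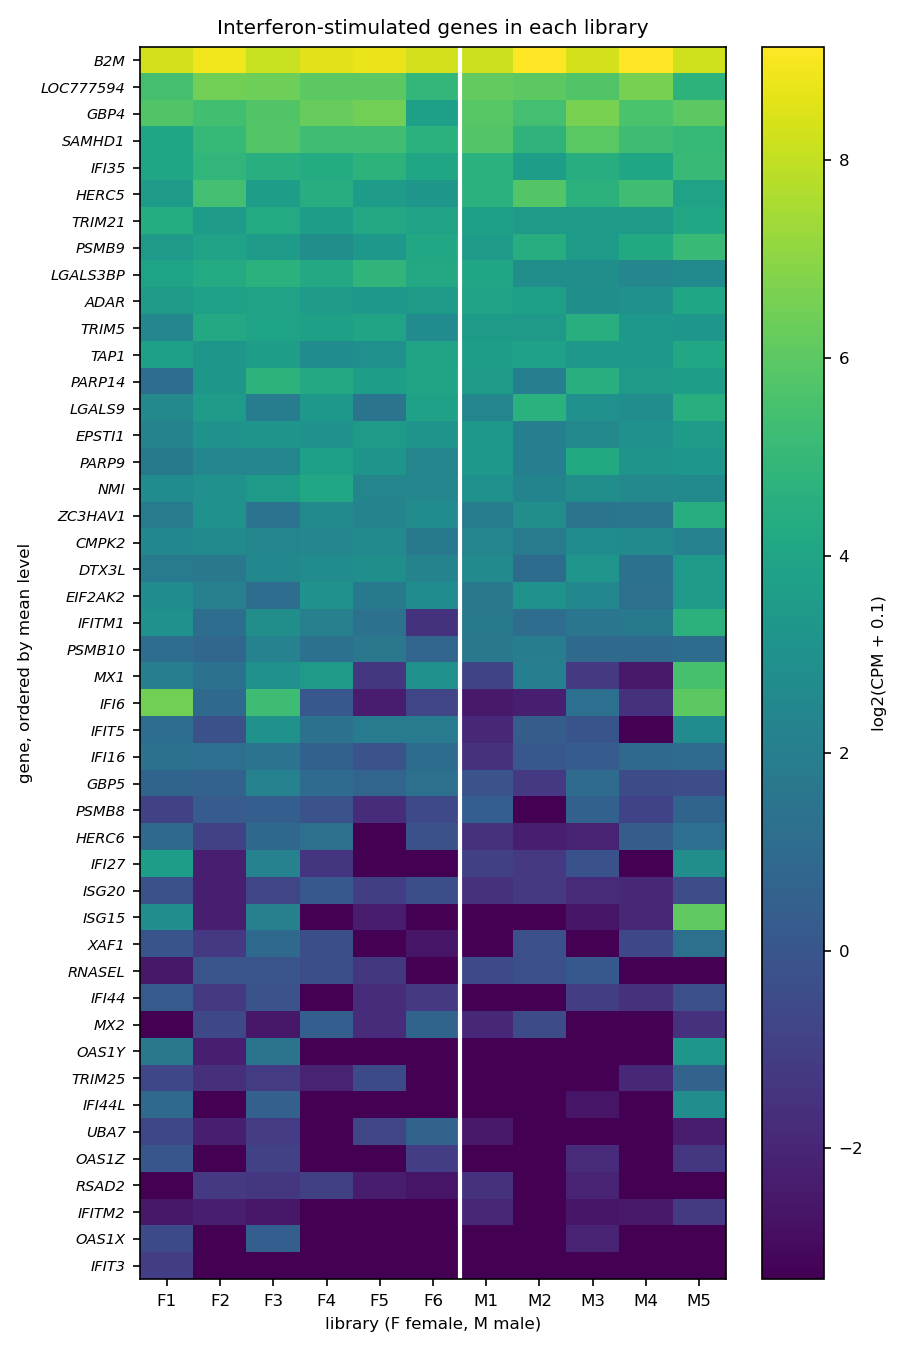
Level of the 46 interferon-stimulated genes with over 3 counts in at least 1 library, as log2 of CPM plus 0.1, by library (F female, M male; the white line parts the sexes) and ordered by mean level. B2M, in the top row, is high in every library, while ISG15, IFI6, IFI27, OAS1Y and IFI44L are bright in F1, F3 and M5.

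The ligands were counted too, and the highest library of IFNT3 was not among those of ISG15 and IFI6. Of 18 interferon genes, 3 were tested, 0 were called and all 3 were lower in males (median log2 fold change -1.36). IFNT3 (chr8:22582520-22583580), an interferon tau gene, was at 132, 93.5, 9.58, 200, 45.8 and 133 CPM in female replicates 1 to 6. In male replicates 1 to 5 it was at 7.10, 360, 3.47, 10.5 and 37.1 CPM. Male replicate 2, the highest library, had 0 counts of ISG15 and 1 of IFI6, while female replicate 3, the lowest female library for IFNT3, was high in both. MX1 and MX2 were at 4.11 and 0.633 CPM in male replicate 2. MX2 was highest in female replicates 6 and 4, at 1.51 and 1.24 CPM, but had 0 counts in female replicate 1. MX1 was at 0.0793 to 0.496 CPM in male replicates 1, 3 and 4. It was at 7.76 CPM in female replicate 3 and 45.1 CPM in male replicate 5. The relation of the response genes to the ligand was not tested.

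The mean of IFNT3 was 102 ± 68.3 CPM in female pools (SD, n = 6) and 83.6 ± 155 CPM in male pools (SD, n = 5), with a log2 fold change of -1.36 (SE 1.20, edgeR adjusted p = 0.686). IFNT2 was at 3.00 ± 3.29 and 0.871 ± 1.53 CPM (log2 fold change -2.39, SE 1.46, edgeR adjusted p = 0.526), and IFN-tau-c1 at 1.88 ± 1.08 and 1.43 ± 1.14 CPM (edgeR adjusted p = 0.778). IFNE, an interferon of epithelia, and IFN-TAU had 70 and 48 counts in all and did not pass the filter. Interferon tau genes are near-identical copies, so the split of reads among them is uncertain. IFNT2 and IFNT3 were called, with 3.11% of all genes, when the filter was left out.

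**Figure D5:**
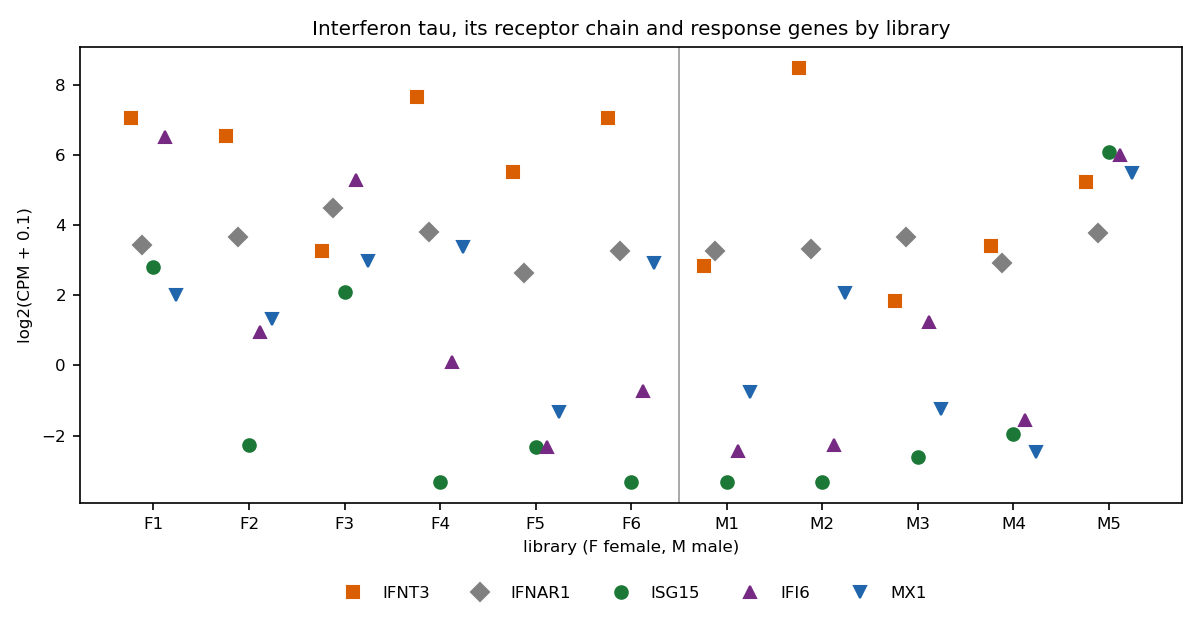
Levels of IFNT3 (squares), IFNAR1 (diamonds), ISG15 (circles), IFI6 (upward triangles) and MX1 (downward triangles) in each library, as log2 of CPM plus 0.1. IFNT3 is highest in M2, at 360 CPM, where ISG15 has 0 counts, while ISG15 and IFI6 are high in F3, where IFNT3 is at 9.58 CPM. MX1 is at 4.11 CPM in M2 and 7.76 CPM in F3.

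No inhibitor or sensor of the pathway was called with all libraries in the fit. Of 13 negative regulators, all were tested and 0 called (median log2 fold change -0.06). PIAS2 and PIAS1, inhibitors of STAT proteins, were at 160 ± 18.3 and 126 ± 17.0 CPM in female pools (SD, n = 6) and 175 ± 29.7 and 115 ± 64.3 CPM in male pools (SD, n = 5). PTPN2, a phosphatase of JAK and STAT proteins, was at 138 ± 14.9 and 139 ± 18.1 CPM. SOCS1 and CISH, feedback inhibitors of cytokine signalling, had log2 fold changes of -0.48 (SE 0.33) and -0.62 (SE 0.53), with edgeR adjusted p of 0.586 and 0.671. USP18, which removes ISG15 from proteins and was chosen after its values were seen, was at 12.2 CPM in male replicate 5 and at most 2.39 CPM in the others.

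Of 20 genes of nucleic acid sensing, 12 were tested and 0 called (median log2 fold change -0.10). TBK1, the kinase that activates IRF3, was at 52.3 ± 6.83 CPM in female pools (SD, n = 6) and 45.4 ± 18.8 CPM in male pools (SD, n = 5), and the adaptor TRAF6 at 30.9 ± 5.07 and 31.6 ± 4.44 CPM. The X-linked IKBKG, a subunit of the kinase upstream of NF-kappa B, had a log2 fold change of -0.61 (SE 0.35, edgeR adjusted p = 0.499). It was at 46.8 CPM in male replicate 5 and 9.64 to 16.4 CPM in the 4 other males, and without that library it was called (log2 fold change -1.08, edgeR adjusted p = 0.0649). RIGI, a sensor of viral RNA, had one of -0.71 (SE 0.46, edgeR adjusted p = 0.561).

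Among themselves, the tested genes were compared over the 11 libraries as log2 CPM. STAT2 and IRF9, partners in one complex, were the pair with the highest correlation (Pearson's r = 0.729, permutation p = 0.0091, adjusted over 10 pairs 0.074; Spearman's rho = 0.773, permutation p = 0.00768, adjusted 0.0768). Without the 2 libraries farthest from the median of STAT2, r was 0.551. IFNAR1 and MX1 had r = 0.601 (permutation p = 0.0481, adjusted 0.0857) and rho = 0.709 (permutation p = 0.0187, adjusted 0.0826), with r = 0.579 without 2 libraries. For IRF9 and MX1, r fell from 0.647 to 0.136 when 2 libraries were left out, and that relation rests on them. Of the 6 pairs without IFI6, 4 had an adjusted p under 0.1 by Pearson and 2 by Spearman. No pooled correlation is given for IFI6, whose libraries fall into separate clusters. Under each library number there were too few libraries to repeat these values.

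Outside the fixed lists, the genes most like each tested gene were found by Pearson's r over the same 11 libraries, as a description. For IFNAR1 these were ZBTB21 (r = 0.870) on the same chromosome and NCDN (0.857). For STAT2 they were UBAP2 (0.893) and MGAT1 (0.882), and for IRF9 MFSD12 (0.964) and CASP9 (0.940). For MX1 they were C15H11orf52 (0.955) and NFKBIE (0.944). For IFI6 they were FANCC and HIVEP1, with no r given since its libraries fall into separate clusters. All genes share the depth of each library, and each pair was picked as the highest of all tested genes. Male replicate 5 was far above the other libraries in IRF9 and MX1, and r without it was not taken for their pairs. Spearman's rho was 0.927 and 0.836 for the pairs of IRF9, and 0.909 and 0.9545 for those of MX1.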

How the data were processed

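RNA-seq was analysed in 6 female and 5 male libraries, grouped and numbered by their GEO labels. The authors trimmed reads with fastp 0.20.0, aligned them to ARS-UCD2.0 with STAR 2.7.10b, counted them per gene with featureCounts and deposited raw counts, without normalization. The kit was SMART-Seq HT PLUS, and the strand setting of the counting is not given in the sources used here, so reads of overlapping genes on opposite strands cannot be told apart. Reads carried no molecular identifiers.

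Counts were tested in R 4.3.3 with edgeR 4.0.16 (filterByExpr by sex, 12802 genes kept of 32637; TMM; quasi-likelihood test; Benjamini-Hochberg). A gene was called where the FDR was under 0.1 and the fold change over 1.5. The model held the first number of the library name, since the study used the collection week, which the labels do not give. That number was checked as a pairing. Deviations of female and male libraries with the same number correlated by -0.111 to 0.351 (mean 0.0735, 4 of 10 pairs over 0.1). Those with different numbers correlated by -0.297 to 0.245 (mean -0.0353, 6 of 20 over 0.1). The number is therefore not read as a pairing, though it stays in the model as a factor. Genes below the filter were tested by a two-sided exact permutation test over 462 splits, whose smallest p is 0.00216. Correlations used log2 CPM with a prior count of 2 and 100000 resamples. Statistics used python 3.11.15 with scipy 1.17.1. Both tests were checked on simulated data. Replicates are pools, collected over more than one week, and the labels do not give the week of each, so p-values measure only the spread between these pools.

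The genes and lists were chosen with earlier results of these data known. Named from each list were called genes, the 3 with the highest mean level, the 2 with the smallest p, ligands with at least 10 counts in a library and, per tested gene, the 2 most similar outside the lists; others are marked as chosen after their values were seen. A few genes that this rule names are not reported here. The ligand list was widened by 8 symbols after the files were read, since the reference gives no descriptions. IFIT1, BST2 and GBP2 were not matched. Symbols of 30271 genes were matched to RefSeq for position. Alternatives were other blocks, DESeq2 1.42.0, other scaling, filters and thresholds, and fits without each library.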

Additional observations from a re-analysis of the deposited data

Results flagged for a closer look

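Male replicate 5 lay far from the other males in 4 response-related genes. IRF9 was at 21.57 CPM there, and the next male library was at 5.589 CPM. ISG15 was at 68.48 CPM, with the next at 0.1586 CPM. MX1 was at 45.12 CPM, with the next at 4.113 CPM. IFI6 was at 64.56 CPM, with the next at 2.249 CPM. The same library had the highest summed trophectoderm markers and the fewest genes with counts, and their part in these values was not tested. Each value was picked out by the gap to its nearest neighbour as a share of the group's range, and 17 groups were looked at. Normally distributed values meet this rule in about 1 in 20 groups. CPM values with many near 0 are not so distributed, and that rate need not hold for them. For IFNAR2, 1 read in female replicate 3 met the rule. Since the 4 values come from 1 library, they are not independent of each other.

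Among the females, IRF2 was at 0.5655 CPM in replicate 6, with the next library at 0.1451 CPM. IFNAR2 was at 0.07254 CPM in female replicate 3, which is 1 read, and at 0 in the other females.

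In 2 genes, every male library lay on one side of every female library under one library number and on the opposite side under another. For STAT2, the difference in mean, male minus female, was -3.327 CPM under number 1 and 1.319 CPM under number 2. For ISG15, it was -3.475 CPM under number 1 and 34.27 CPM under number 3. For ISG15 the order of some libraries rests on counts under the limit of 3: male replicate 4 had 2 counts and female replicate 5 had 1, and female replicate 2 had 1 count where both males under its number had 0. These differences between numbers were not tested, and each rests on 1 or 2 libraries a side.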

How the results depend on the processing

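The count of 0 sex-biased genes among those described held in 22 of 23 alternatives and became 1 (IFI6) when no filter was used. Some of these alternatives could not have raised the count. An FDR of 0.05 and glmTreat only tightened the rule. EdgeR with a filter did not test IFNAR2, IRF2, ISG15 and MX2, and the stricter filter also dropped MX1 and IFI6. Between library numbers, the count of 0 held in 13 of 14 and became 3 without the filter. Leaving out each library gave 0 in both. Of the pathway genes other than those described, 1 was called, against 1.91% of all tested genes. Together with the described genes, 79 were tested. That count was 0 with the title number as block, at an FDR of 0.05 and with glmTreat. It was 2 by DESeq2 with both numbers of the library name and 4 without the filter (HERC5, IFNT2, IFNT3 and LGALS3BP). It lay between 0 and 1 without each library, and the 1 without male replicate 5 was IKBKG. The calls over all genes moved too: from 245 to 132, 125 and 62 in the first 3 of these settings, 840 by DESeq2 with both numbers and 743 without the filter.

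Without the replicate block, all calls over the described and pathway genes were as before, and the log2 fold change of IRF9 was 0.0493 (0.0427 by DESeq2 with sex alone), that of IFI6 -0.72 and that of MX1 0.92. For MX1 the log2 fold change was -1.78 with the title number as block, -0.56 with both numbers and -0.88 by DESeq2 with both. Leaving out each library in turn gave log2 fold changes between -0.28 and 0.09 for IFNAR1, -0.34 and -0.01 for STAT2, -0.73 and 0.03 for IRF9, -2.49 and 1.10 for MX1, and -4.85 and 0.63 for IFI6. The turned values were 0.02 (without female replicate 3) and 0.0886 (male 3) for IFNAR1, 0.0258 (male 4) for IRF9, -0.69 (female 5), -0.34 (female 6), -0.31 (male 2) and -2.49 (male 5) for MX1, and 0.46 (female 1), 0.63 (female 3), 0.51 (male 1) and 0.49 (male 2) for IFI6. The difference in ISG15 lay between -1.82 and 15.3 CPM, and it was -1.82 CPM without male replicate 5. None of these values passed the test, and the cause of the turns was not tested. MX1 and IFI6 did not pass the stricter filter and have no value there.

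Of 10 pairs of genes, 7 had an adjusted Pearson correlation p under 0.1 (3 of them pairs of IFI6, whose libraries fall into separate clusters), 8 with a prior count of 0.5 and 1 with deviations from the mean of each sex (STAT2 and IRF9).

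Over all genes, the 245 calls became 132 with the title number as block, 652, 840 and 739 by DESeq2 with the library number, with both numbers and with sex alone, 743 without the filter, 125 at an FDR of 0.05 and 62 with glmTreat, and lay between 95 and 364 without each library. The 1 gene called between library numbers became 90 by DESeq2 and 658 without the filter. At 3 counts a library, a level under 0.145 to 0.412 CPM was not detectable, which covers IFNAR2 in all libraries and ISG15 in 8.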
